A study of Mus musculus with 10 samples.

Results

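SW1 is a mouse melanoma cell line, and the cells described here are the barcodes of SW1 tumors that carried RNA of the transcription factor Sox10 together with abundant RNA of 4 mitotic genes. Barcodes were chosen by their measured UMIs, and each held at least 1000 genes and at most 10% mitochondrial unique molecular identifiers (UMIs, each standing for 1 captured RNA molecule), at least 1 UMI of Sox10, none of the leukocyte gene Ptprc, at most 5 of C1qa, C1qb and C1qc together, and at least 8 of Mki67, Top2a, Ube2c and Cdk1 together. Of the 41936 barcodes in the 5 gene expression libraries, 1927 met this rule, and they are called cycling Sox10 barcodes. Of the rest, 7812 passed the same limits with at most 1 UMI of the 4 cycle genes, and serve as the non-cycling Sox10 barcodes.

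The tumors grew under the skin of the right flank of female C3H/HeJ mice, injected with SW1 cells at 4 to 6 weeks of age, for 10 days by the labels before treatment. Pretreatment tumors came from 3 mice at day 0. In the other groups, drinking water without or with 100 mM L-fucose (L-fuc, a dietary sugar) was freely available for 7 or 21 days. All mice carried the same tumor line, and no genetic change was made in any group. Each condition is 1 pooled library of the droplet system of 10x Genomics, so there are no replicates, no test was possible between conditions, and every interval below covers counting error only, not the spread between mice. The labels call every library sorted for CD45, the leukocyte protein that Ptprc encodes, although the cells described here were chosen for having no Ptprc RNA. Barcodes with the Sox10, Ptprc and complement limits of the rule made up 22.05% of the barcodes past the gene and mitochondrial limits at pretreatment, 58.0% at control day 7, 39.4% at L-fuc day 7, 38.9% at control day 21 and 36.4% at L-fuc day 21. The control library of day 7, against which L-fuc day 7 is set below, thus had the highest share, and whether it was sorted like the others was not tested.

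The libraries are given throughout in the order pretreatment, control of day 7, L-fuc of day 7, control of day 21 and L-fuc of day 21. They held 1725, 20741, 15288, 2754 and 1428 barcodes with 14439185, 119047810, 88986101, 21727157 and 16589803 UMIs. Cycling Sox10 barcodes numbered 50, 1268, 398, 113 and 98, with 1254737, 15992868, 9185399, 3780976 and 3845150 UMIs in all. The control library of day 7 thus held most of them.

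A dividing cell first copies its DNA in S phase, with the help of the MCM helicase, the sliding clamp PCNA and enzymes that make nucleotides, and then builds the spindle and divides in G2 and M phase. Genes of S phase are switched on largely by E2F factors, and genes of G2 and M phase by a complex that contains B-Myb (Mybl2) and Foxm1, after the retinoblastoma proteins and the cyclin-dependent kinase inhibitors have been overcome. Mki67 encodes the proliferation antigen Ki-67, Top2a the topoisomerase that untangles sister chromosomes, Ube2c a ubiquitin-conjugating enzyme that helps to remove mitotic cyclins, and Cdk1 the kinase that drives entry into mitosis. Sox10 is a factor of the neural crest, from which both melanocytes and Schwann cells arise.

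The promoters of the 4 cycle genes in the rule are printed because the rule takes their RNAs together, and that of Mcm6, a subunit of the MCM helicase, is printed as an S phase gene for contrast. Each is the last 200 bases before the annotated RefSeq start on GRCm38.p6, the assembly also known as mm10 to which the authors aligned their reads, written 5′ to 3′ on the strand of the gene. Capitals mark 3 motifs on either strand: the cell cycle homology element TTTGAA, which reads TTCAAA on the other strand, the NF-Y site CCAAT, which reads ATTGG, and the E2F-like motif TTTNGCGC, which reads GCGCNAAA.
Mki67, chr7:135716380-135716579, minus strand: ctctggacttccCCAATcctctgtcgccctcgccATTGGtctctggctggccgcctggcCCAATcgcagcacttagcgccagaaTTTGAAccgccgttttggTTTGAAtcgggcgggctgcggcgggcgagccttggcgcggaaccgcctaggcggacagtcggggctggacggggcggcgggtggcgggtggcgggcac
Top2a, chr11:99024190-99024389, minus strand: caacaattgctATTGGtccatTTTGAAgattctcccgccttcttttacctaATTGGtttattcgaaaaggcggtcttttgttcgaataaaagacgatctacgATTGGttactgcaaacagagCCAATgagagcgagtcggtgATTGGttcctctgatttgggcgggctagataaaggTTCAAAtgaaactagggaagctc
Ube2c, chr2:164769729-164769928, plus strand: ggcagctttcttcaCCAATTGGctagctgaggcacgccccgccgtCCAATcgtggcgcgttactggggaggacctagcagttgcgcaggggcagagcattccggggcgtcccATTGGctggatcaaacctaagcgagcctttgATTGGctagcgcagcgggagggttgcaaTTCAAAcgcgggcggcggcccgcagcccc
Cdk1, chr10:69352913-69353112, minus strand: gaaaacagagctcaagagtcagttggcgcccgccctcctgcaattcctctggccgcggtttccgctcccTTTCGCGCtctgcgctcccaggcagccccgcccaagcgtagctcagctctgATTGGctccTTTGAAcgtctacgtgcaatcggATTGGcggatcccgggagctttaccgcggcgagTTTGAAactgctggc
Mcm6, chr1:128359706-128359905, minus strand: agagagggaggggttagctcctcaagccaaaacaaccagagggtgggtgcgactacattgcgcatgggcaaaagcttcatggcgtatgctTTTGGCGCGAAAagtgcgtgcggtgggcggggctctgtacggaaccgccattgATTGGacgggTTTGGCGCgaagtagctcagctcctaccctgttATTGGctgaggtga

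In these windows Mki67 held 2 matches of TTTGAA and 3 of CCAAT, Top2a 2 and 5, Ube2c 1 and 5, and Cdk1 2 and 2 beside 1 TTTNGCGC. The first 2 CCAAT matches of Ube2c lie on opposite strands and share bases. Mcm6 held no TTTGAA, 2 CCAAT and 3 TTTNGCGC, of which the first 2 share bases on opposite strands. Over the 250 bases before the start, TTTGAA was found in 15.99% of all 32851 promoters of 27025 genes, in 17.65% of the 34 promoters that matched 31 of 43 S phase genes, and in 35.42% of the 48 promoters that matched 43 of 50 G2/M genes. CCAAT was in 33.85%, 67.65% and 72.92% of the same sets, and 2 or more copies of it in 10.09%, 38.24% and 50%. TTTNGCGC was in 1.132%, 17.65% and 6.25%. These are matches of letters and not sites of binding.

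The label was checked against marker genes. Sox10 was chosen for, and stood at 391, 347, 367, 391 and 438 UMIs per 1000000 UMIs (CPM, over the summed UMIs of the cycling Sox10 barcodes of a library), with a median of 8, 4, 7, 12 and 16 UMIs per barcode. A list of 26 Schwann cell and neural crest genes summed to 2569, 2700, 2534, 2240 and 2352 CPM, of which Apod was the most abundant. A list of 14 melanocyte genes summed to only 65.4, 71.0, 57.7, 84.9 and 37.4 CPM. Mitf, the regulator of the melanocyte lineage, was the most abundant of these, and Tyr, Mlana and Oca2, which make or shape pigment, were at 0 in every library. T cell barcodes (at least 2 UMIs of Cd3 genes, at least 1 of Ptprc and at most 5 of the complement genes) of the same libraries held 42.0, 79.8, 64.3, 51.98 and 11.7 CPM of the melanocyte list, which was above the cycling Sox10 barcodes in both libraries of day 7 and below them in the others. With the barcodes chosen at full depth and then thinned at random to 5000 UMIs each, Mitf was found in 12.2%, 18.02%, 14.0%, 19.5% and 13.4% of the cycling Sox10 barcodes and in 2.01%, 12.5%, 5.32%, 0% and 0% of the T cell barcodes. The shares of T cell barcodes were lower, but the exact intervals overlap in every library except L-fuc day 7. With Mitf and the pigment enzyme Tyrp1 at low levels and Tyr, Mlana and Oca2 at 0, the cells are named here by the rule. Their neural crest RNA was the more abundant of these 2 lists in every library. T cell barcodes held 167, 1866, 977, 192 and 160.3 CPM of the Schwann and neural crest list, most at control day 7, where the level in the cycling Sox10 barcodes was nearest to that background.

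Markers of B cells, NK cells, neutrophils and endothelium summed to at most 13.4 CPM in any library, and Cdh5, Emcn and Cldn5 of the endothelial list were at 0. The keratinocyte list summed to 21.5, 22.9, 22.5, 20.4 and 19.5 CPM from Krt10, with Krt5, Krt14, Krt1 and Dsp at 0. The pericyte list, led by Cspg4, stood at 36.7, 61.7, 60.3, 126 and 67.6 CPM, a level like that of the melanocyte list. The T cell list summed to 2.39, 20.6, 6.97, 2.38 and 1.82 CPM against 4133, 1977, 3229, 7757 and 2756 in the T cell barcodes. The macrophage list of 14 genes summed to 997, 1199, 739, 1575 and 927 CPM, most of it from Fcer1g, the Fc receptor gamma chain, at 877, 794, 568, 1329 and 729 CPM. Tyrobp, which macrophages carry beside Fcer1g, was at 2.39, 27.4, 8.71, 4.50 and 1.04 CPM, and the complement gene C1qa, which the rule limits, at 3.19, 35.1, 7.51, 4.76 and 2.34 CPM. The control library of day 7 was the highest for both. The fibroblast list stood at 307, 243, 211, 363 and 257 CPM, led by Lum, and the red cell list at 0, 290, 991, 4.23 and 0.260 CPM, led by the globin Hbb-bs.

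T cell barcodes, which should lack Sox10, held UMIs of it at day 7. A Sox10 UMI was found in 0% of the T cell barcodes at pretreatment (0 of 281, upper limit 1.30%), in 37.0% at control day 7 (194 of 525), in 11.1% at L-fuc day 7 (92 of 827), and in 0 of 44 and 0 of 23 at day 21 (upper limits 8.04% and 14.8%). Control day 7 was the highest, and the limit at L-fuc day 21 does not set that library below L-fuc day 7. The parts of free RNA and of mixed barcodes in these shares were not tested. Their median depths of 5249, 4595, 5211, 4949 and 8831 UMIs were below those of the cycling Sox10 barcodes, which were 24344, 12065.5, 21763, 32408 and 38862 UMIs. At least 8 UMIs of the 4 cycle genes were found in 6.05%, 12.95%, 5.93%, 0% and 17.4% of the T cell barcodes, which can cycle themselves. Of the cycling Sox10 barcodes, 205 rested on 1 Sox10 UMI, of which 178 were from control day 7. With at least 2 Sox10 UMIs asked for, 1722 barcodes remained.

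Near the limit of the rule, 122 barcodes held exactly 7 UMIs of the 4 cycle genes (1, 88, 26, 5 and 2) and stayed outside, and 93 held exactly 8 (2, 73, 10, 3 and 5) and were taken. The median of the 4 genes together was 45, 23, 31, 52 and 63 UMIs, with a highest barcode of 154, 221, 371, 323 and 357. Between the cycling and the non-cycling Sox10 barcodes lay 2108 barcodes with 2 to 7 cycle UMIs. The rule genes themselves stood at 399, 497, 422, 496 and 484 CPM for Mki67, at 634, 800.5, 724, 764 and 778 CPM for Top2a, at 835, 728, 608, 593 and 581 CPM for Ube2c and at 383, 308, 314, 353 and 309 CPM for Cdk1. These levels were set by the choice of barcodes. Leaving out mitochondrial and ribosomal protein genes, the genes with the highest CPM at control day 7 were Gm42418, Fth1, Actb, Tmsb10, Malat1, Tpt1, Eef1a1, Hsp90ab1, Vim and Ptma, which are abundant in many cell types.

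The libraries of day 7 had 433 barcode sequences in common and the other pairs of libraries 3 to 86, and 1 was a cycling Sox10 barcode in both libraries of day 7. Libraries of T cell receptors from these pools held a contig for 0, 10, 1, 0 and 0 of the cycling Sox10 barcodes, or 11 of 1927 (0.571%), against 1189 of 1700 T cell barcodes (69.9%). The 10 at control day 7 were 0.789% of its cycling Sox10 barcodes (exact 95% binomial interval 0.379% to 1.45%), and 25 of the 5379 non-cycling Sox10 barcodes of that library (0.465%) held a contig too. Doublets were not removed by a caller, and the part of mixed barcodes in the results below was not tested.

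How many of the Sox10 barcodes were in cycle was asked first. Cycling Sox10 barcodes made up 20% of all barcodes with the same Sox10, Ptprc and complement limits at pretreatment (exact 95% binomial interval 15.2% to 25.5%), 15.3% at control day 7 (14.5% to 16.1%), 15.1% at L-fuc day 7 (13.8% to 16.5%), 25.1% at control day 21 (21.2% to 29.4%) and 42.2% at L-fuc day 21 (35.8% to 48.9%). The 2 libraries of day 7 had the lowest shares and L-fuc day 21 the highest. L-fuc stood to control as 0.986 at day 7 (0.879 to 1.10) and as 1.68 at day 21 (1.27 to 2.22).

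A barcode read more deeply reaches 8 cycle UMIs more easily. All barcodes of at least 5000 UMIs were therefore also thinned at random to 5000 UMIs each before the rule was applied. This left out 13, 1910, 174, 22 and 5 Sox10 barcodes that were shallower. A barcode that lost its Ptprc UMIs, or enough complement UMIs, in thinning could enter the Sox10 barcodes. A barcode that lost its Sox10 UMIs could leave them. How many did so was not counted. The shares then were 12.4% (8.21% to 17.8%), 11.9% (11.1% to 12.7%), 8.51% (7.39% to 9.73%), 13.6% (10.4% to 17.4%) and 25.2% (19.4% to 31.8%). At equal depth L-fuc day 7 was the lowest library, at 0.715 times control day 7 (0.606 to 0.839), and L-fuc day 21 was 1.85 times control day 21 (1.24 to 2.77). At day 7 the interval of the ratio spanned 1 with all UMIs and lay below 1 at equal depth, and at day 21 it lay above 1 at both. Of the barcodes that met the T cell limits after thinning to 5000 UMIs, 3.47%, 8.60%, 4.10%, 0% and 17.6% held 8 cycle UMIs, the last being from 17 barcodes. Not all of them met these limits with all UMIs too, for example 359 of 439 at L-fuc day 7. Since 1 pool of mice stands behind each share, the difference between mice and that between treatments cannot be told apart.

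**Figure D1:**
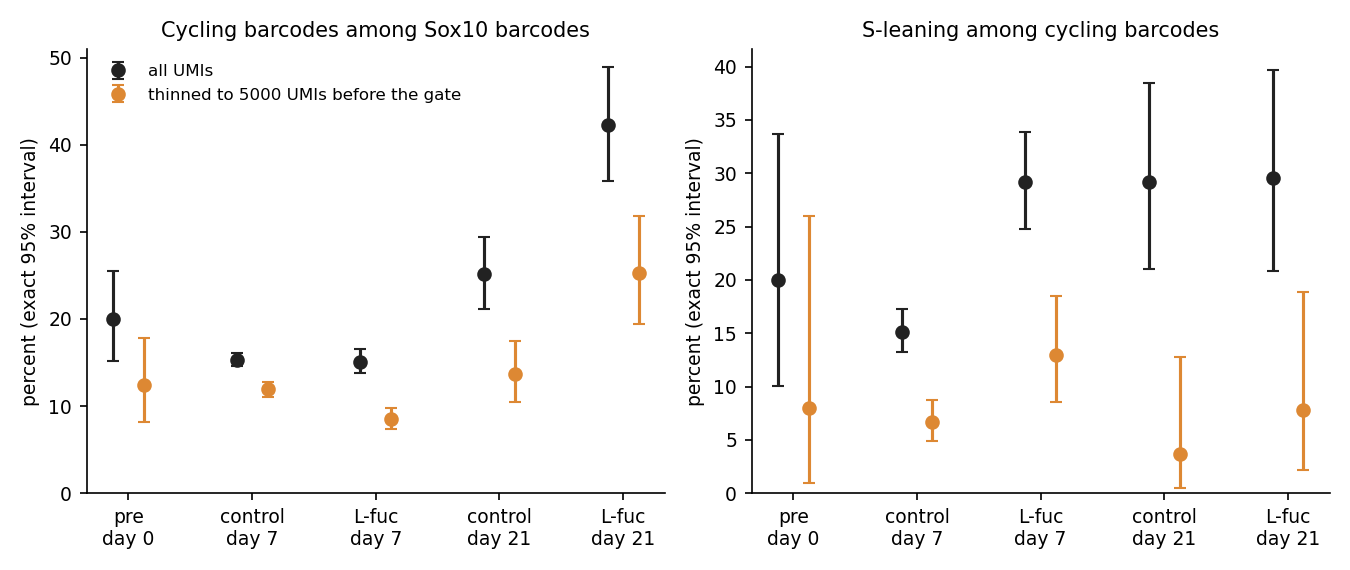
Share of cycling barcodes among the Sox10 barcodes (left) and share of the cycling Sox10 barcodes whose S phase list exceeded their G2/M list (right), in percent, for the 5 libraries, with all UMIs and after thinning to 5000 UMIs. Points are shares and bars are exact 95% binomial intervals. L-fuc day 21 has the highest cycling share at both depths, 42.2% and 25.2%.

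Where in the cycle the barcodes stood was read from 2 lists, of 43 S phase genes and 50 G2/M genes. The median of the S phase list was 26.8, 28.2, 35.8, 30.9 and 30.3 UMIs per 10000 UMIs of a barcode, and that of the G2/M list 91.0, 85.8, 72.6, 87.6 and 81.3. L-fuc day 7 was highest in the first and lowest in the second. Across the cycling Sox10 barcodes of a library the lists ran against each other, with a Spearman correlation of -0.56, -0.39, -0.34, -0.45 and -0.44 over 50, 1268, 398, 113 and 98 barcodes. Both lists are shares of the same UMIs, and the rule asks for RNA of genes that peak in G2 and M phase, so the correlation is a description.

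**Figure D2:**
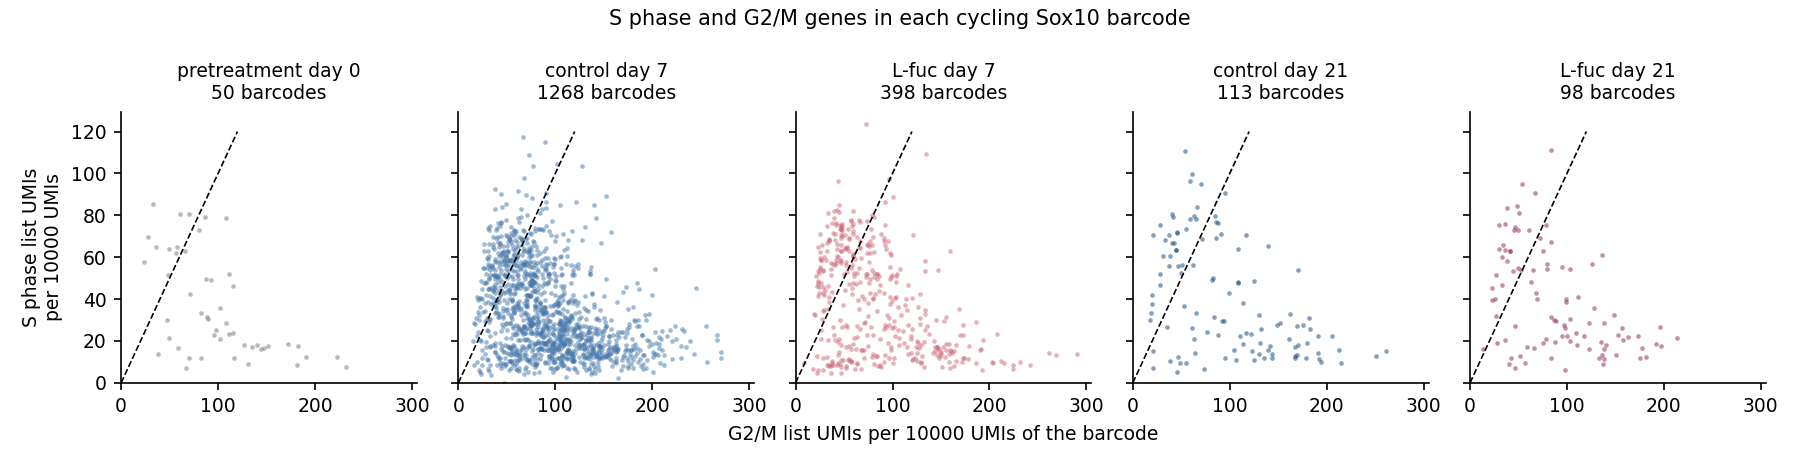
Each point is 1 cycling Sox10 barcode, with its UMIs of the G2/M list on the x axis and of the S phase list on the y axis, both per 10000 UMIs of the barcode. The dashed line marks equal values, and 20%, 15.1%, 29.1%, 29.2% and 29.6% of the barcodes lie on its S phase side in the 5 panels.

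Barcodes with more S phase than G2/M UMIs are called S-leaning here, a range of a score and not a cell type. They were 10, 192, 116, 33 and 29 barcodes, or 20% (10.0% to 33.7%), 15.1% (13.2% to 17.2%), 29.1% (24.7% to 33.9%), 29.2% (21.0% to 38.5%) and 29.6% (20.8% to 39.7%) of the cycling Sox10 barcodes. Within 20% of the line lay 7, 149, 49, 10 and 10 barcodes. At day 7 the S-leaning share with L-fuc was 1.92 times that of control (1.52 to 2.44), and at day 21 it was 1.01 times (0.594 to 1.72). After thinning before the rule, the shares were 8%, 6.64%, 12.95%, 3.70% and 7.84%, the day 7 ratio was 1.95 (1.15 to 3.24) and the day 21 ratio 2.12 (0.303 to 23.4). The share was thus lower at 5000 UMIs in every library, the day 7 ratio was close at both depths, and the thinned barcodes of day 21 were too few to set the days apart. The day 7 ratio moved with other limits. With at least 16 cycle UMIs the shares were 7.02% at control and 22.1% at L-fuc day 7, farther apart, and without barcodes of more than 5 UMIs of 7 immune genes they were 13.1% and 14.3%, close to each other, the latter from 14 barcodes.

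S-leaning barcodes differed from the others along the whole cycle. The helicase subunit Mcm6, whose promoter is printed above, stood at 594, 321, 350, 503 and 480 CPM in the S-leaning barcodes and at 132, 102, 104, 131 and 116 CPM in the others. Cenpf, a kinetochore protein of G2 and M phase, went the other way, with 37.7, 64.8, 49.6, 59.9 and 61.9 CPM against 521, 615, 630, 758 and 581 CPM. The list medians of this log2 ratio (1 UMI added to each sum) were between 1.08 and 1.26 for S phase and between -1.75 and -1.39 for G2/M, and both follow from the split itself. The list of 18 nucleotide synthesis genes was 0.50 to 0.68 higher on the S phase side. The replication-dependent histones, which package newly copied DNA, had medians of -0.28, -0.98, -1.61, -1.76 and -1.19, so by its median this list was higher on the G2/M side. Across barcodes, however, the S phase and the histone list correlated positively, with a Spearman correlation of 0.48, 0.32, 0.17, 0.18 and 0.17 over the barcodes of each library. Hist1h2ae stood at 674, 349, 283, 310 and 341 CPM on the S phase side and 1111, 833, 1058, 1341 and 1341 CPM on the other. The hypoxia list had medians of -0.81, -0.33, -0.44, -0.55 and -0.45, also lower in the S-leaning barcodes.

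What the cycling Sox10 barcodes held beside cycle genes was described against the non-cycling Sox10 barcodes of the same library. Each ratio is the log2 of one CPM over the other, 1 UMI being added to each sum, and genes had to reach 50 UMIs in both sets together. Because the rule splits cells by cycle RNA, every value in this comparison is a description. Of 7579, 12203, 11430, 10020 and 9457 genes, 548 (7.23%), 846 (6.93%), 904 (7.91%), 758 (7.56%) and 718 (7.59%) were more than 2-fold higher in the cycling barcodes, and 202 (2.67%), 338 (2.77%), 420 (3.67%), 289 (2.88%) and 231 (2.44%) more than 2-fold lower. The median of all genes lay between 0.04 and 0.09. In both libraries of day 7, 709 of 11395 genes (6.22%) were past 2-fold higher and 135 (1.18%) past 2-fold lower. Below, counts of a list are for both libraries of day 7 unless another library is named, and are read beside these shares. The non-cycling barcodes were shallower, with a median of 15838.5, 6949, 13281.5, 20166 and 25220.5 UMIs. Those of control day 7 also held more cycle RNA than the others, for example 18.7 CPM of Top2a against 4.98 to 7.38 in the other libraries. The medians of the S phase, G2/M and histone lists were lowest in that library, though not the ratio of each cycle gene.

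The genes of DNA replication were higher in the cycling barcodes of all 5 libraries. Of 43 S phase genes, 41 were past 2-fold, with list medians of 2.71, 2.43, 3.07, 2.73 and 2.75. Pcna, the sliding clamp, stood at 196, 180, 237, 180 and 175 CPM against 36.7, 44.4, 39.1, 33.0 and 30.2 CPM in the non-cycling barcodes. The helicase subunit Mcm5 was 4.38, 2.86, 3.78, 3.84 and 4.62 log2 units higher. Mcm6 had 220, 137, 178, 240 and 217 CPM against 57.7, 41.7, 38.9, 61.2 and 51.2 CPM. Rrm2, the regulated subunit of the ribonucleotide reductase, was 5.32, 3.87, 5.01, 4.48 and 5.35 log2 units higher.

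Nucleotide synthesis genes were higher in part. Of 18 genes in that list 8 were past 2-fold higher, with medians of 0.93, 0.87, 1.18, 0.84 and 0.94. Thymidine kinase, Tk1, which salvages thymidine and is made in cycling cells, stood at 208, 144, 149, 168 and 162 CPM and was 7.06, 4.87, 6.25, 6.57 and 6.44 log2 units higher. Ribosome biogenesis genes differed less, with medians of 0.37, 0.43, 0.53, 0.59 and 0.56 and 1 of 18 past 2-fold.

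Of the cycle lists, that of G2 and M phase, which the rule genes belong to, had the largest medians. Of 50 genes in the list 47 were past 2-fold higher, with medians of 5.20, 4.10, 5.32, 5.26 and 4.99. Aurkb, the kinase of the chromosomal passenger complex, stood at 179, 160, 135, 165 and 157 CPM and was 7.73, 5.51, 7.06, 7.12 and 6.74 log2 units higher. Birc5 (survivin), of the same complex, stood at 341, 288, 256, 260 and 239 CPM. Cenpf had 429, 529, 457, 555 and 437 CPM, and Hmgb2, a chromatin protein, 1106, 932, 945, 984 and 981 CPM at smaller ratios of 4.26, 3.33, 3.60, 3.76 and 3.53. Ranked by the smaller log2 ratio of the day 7 libraries, the genes at the top were Ube2c of the rule, Troap, Ankle1, Pif1, Mxd3, Depdc1b, Neil3, Iqgap3, Pimreg and Aurkb. Mxd3, a partner of Max and relative of the Myc antagonists, had 51.0, 62.2, 50.8, 52.6 and 59.0 CPM against 0, 1.28, 0.198, 0.386 and 0 CPM, while its relative Mxd4 had 22.3, 48.2, 28.4, 23.8 and 20.3 CPM against 132, 167, 149, 148 and 140 CPM. The pair lay in opposite directions in every library.

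Replication-dependent histones had medians of 3.94, 1.41, 3.89, 3.39 and 3.66, with 13 of 18 genes past 2-fold higher. Summed over 24 genes they made up 4132, 2427, 2721, 2979 and 4140 CPM of the cycling barcodes against 233, 501, 217, 283 and 429 CPM of the non-cycling ones. Most histone messages end in a stem loop and not in a poly(A) tail, and the capture used here starts from poly(A), so these levels stand for the captured part only. The T cell barcodes held 1015, 1315, 880, 860 and 4068 CPM.

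Of the genes that steer the cycle, 14 of 22 were past 2-fold higher and 1 lower, with medians of 1.49, 1.68, 2.12, 1.76 and 1.89. Ccna2, the cyclin of S and G2 phase, stood at 219, 177, 151, 209 and 176 CPM and was 6.84, 4.61, 6.67, 7.06 and 6.57 log2 units higher. Foxm1 had 61.4, 84.4, 88.8, 81.2 and 79.3 CPM at ratios of 4.56, 4.76, 4.99, 6.10 and 4.72. E2f1, an activator of S phase genes, had 70.1, 45.6, 62.5, 66.7 and 53.1 CPM, and Mybl2 27.9, 18.5, 29.3, 29.4 and 30.7 CPM. The D cyclins, which link growth signals to the cycle, behaved differently. Ccnd1 stood at 493, 589, 600, 348 and 477 CPM against 461, 557, 563, 510 and 524 CPM, on both sides of equality. Ccnd2 was the gene past 2-fold lower, with 94.8, 167, 170, 136 and 137 CPM against 221, 365, 360, 329 and 347 CPM, a log2 ratio of -1.22, -1.12, -1.08, -1.27 and -1.34 whose exact intervals together ran from -1.52 to -0.94. Its gene lies at chr6:127125162-127152188 on GRCm38.p6. Myc was lower too, by ratios of -1.01, -0.72, -0.77, -0.84 and -0.93.

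The inhibitors of the cycle differed in both directions. Over 11 genes the medians were 0.21, -0.03, -0.02, 0.00 and -0.04, and 3 were past 2-fold higher. These were Cdkn2c (p18) at 2.11, 1.95, 2.07, 1.90 and 1.90, Cdkn2d (p19Ink4d) at 2.85, 2.36, 2.42, 2.35 and 2.45, and the retinoblastoma relative Rbl1 (p107) at 2.98, 2.66, 3.04, 3.41 and 3.99. Cdkn1a (p21), a target of p53 that blocks cyclin-dependent kinases, was lower, with 35.1, 71.7, 53.6, 15.9 and 14.0 CPM against 87.9, 124, 110, 52.5 and 69.4 CPM. It was past 2-fold lower in every library except control day 7, where the log2 ratio was -0.79. Cdkn1b (p27) had ratios of -0.08, -0.16, -0.23, -0.36 and -0.14. The p53 target list had medians of -0.36, -0.29, -0.40, -0.61 and -0.10. Its Trp53inp1 was past 2-fold lower and its Gtse1, which is also a gene of G2 phase, past 2-fold higher.

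**Figure D3:**
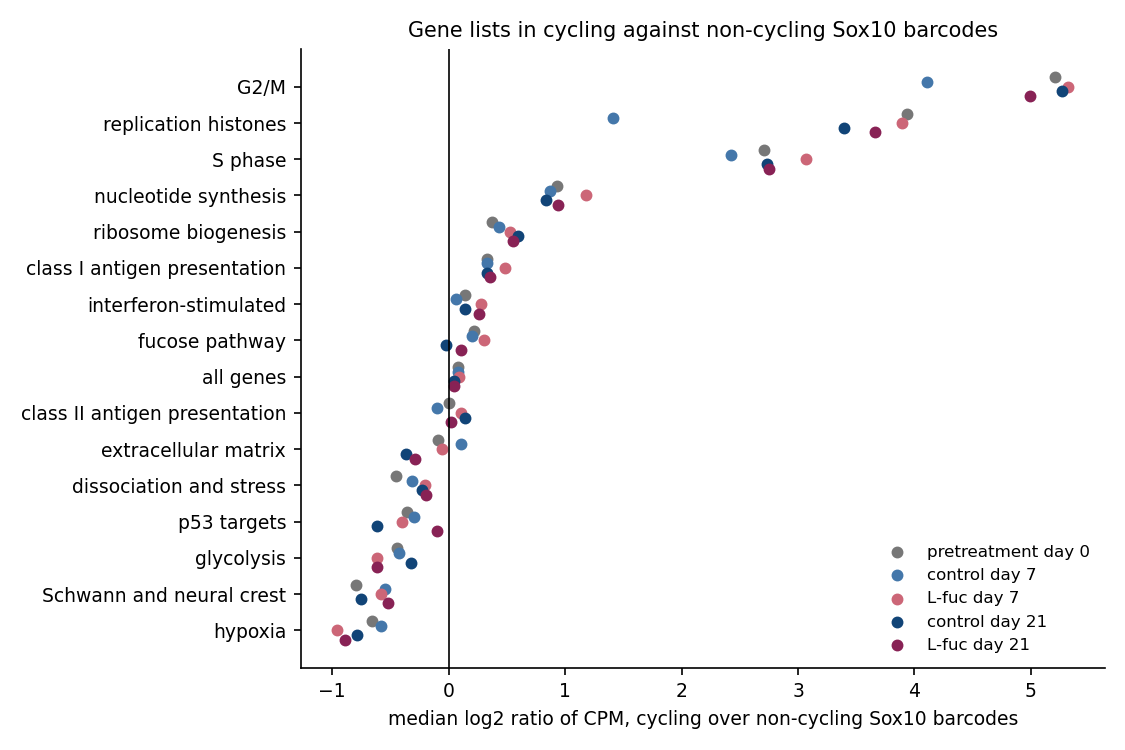
Median log2 ratio of cycling over non-cycling Sox10 barcodes for each gene list, 1 point per library, with the vertical line at 0. S phase, G2/M and histone lists lie far to the right, and the Schwann and neural crest, hypoxia and glycolysis lists lie left of 0 in all 5 libraries.

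The Schwann cell and neural crest list had a median below 0 in every library. It summed to 4445, 4255, 4683, 4065 and 4010 CPM in the non-cycling barcodes, against 2240 to 2700 in the cycling ones, with medians of -0.80, -0.55, -0.58, -0.75 and -0.52 and 2 of 22 genes past 2-fold lower. Apod, a lipid carrier, stood at 366, 486, 577, 132 and 167 CPM in the cycling barcodes and had ratios of -1.26, -0.94, -1.51, -1.90 and -2.18, and the neuregulin receptor Erbb3 -0.55, -0.37, -0.45, -0.58 and -0.58. Ncam1, an adhesion molecule, lay at 0.30, 0.05, -0.11, -0.12 and -0.07, so the genes of the list did not all differ. Sox10, which the rule asks for in both sets, was at -0.29, -0.28, -0.26, -0.43 and -0.28.

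The hypoxia and glycolysis lists had medians below 0 in every library as well, with few genes past 2-fold in both libraries of day 7. The hypoxia list had medians of -0.66, -0.58, -0.96, -0.79 and -0.89, with 2 of 16 genes past 2-fold lower. Car9, the carbonic anhydrase induced when oxygen is short, stood at 27.9, 52.3, 59.6, 21.7 and 10.9 CPM against 101, 121, 204, 82.0 and 77.1 CPM, log2 ratios of -1.83, -1.21, -1.78, -1.91 and -2.79. Ankrd37, also induced by hypoxia, had ratios of -1.30, -1.14, -1.61, -1.34 and -1.05. The glucose transporter Slc2a1 was at -1.23, -0.75, -1.28, -1.40 and -1.32. Egln3, an oxygen-sensing hydroxylase of the same response, did not follow, with ratios of 0.08, 0.44, 0.02, 0.65 and 0.19. The glycolysis list had medians of -0.45, -0.43, -0.62, -0.32 and -0.61 with none of 14 genes past 2-fold lower and 1, a second entry under the symbol Aldoa, past 2-fold higher. Pgk1 was at -0.37, -0.41, -0.51, -0.21 and -0.51 and Ldha at -0.25, -0.27, -0.29, -0.26 and -0.45. In macrophage barcodes of the same libraries, the hypoxia list was lower in the cycling ones too, by medians of -0.57, -0.39, -0.56, -0.98 and -0.43, and glycolysis by -0.14, -0.04, -0.03, -0.33 and -0.09.

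The lowest genes by the day 7 ranking included Sema4g, Gm16183, Tcea3, Mxd4, Agt, Aldoc, Ogn, Gm45847 and Aox1. Most are of low level, such as the semaphorin Sema4g at 0.797, 2.69, 1.85, 0.793 and 1.04 CPM against 6.76, 11.8, 8.10, 8.11 and 8.14 CPM. Ogn, a matrix proteoglycan, was more abundant, with 41.4, 34.9, 37.7, 53.4 and 51.5 CPM against 138, 116, 164, 291 and 183 CPM. The list of 26 matrix genes as a whole had medians of -0.09, 0.11, -0.05, -0.36 and -0.29, lowest in the libraries of day 21. The fucose pathway list, which holds the enzymes that make and attach fucose, had medians of 0.21, 0.20, 0.30, -0.02 and 0.10 and no gene past 2-fold in both libraries of day 7. Stress genes of tissue dissociation had medians of -0.46, -0.31, -0.20, -0.23 and -0.19.

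What separated cycling Sox10 barcodes from other cycling cells was described against 23, 81, 92, 39 and 31 cycling macrophage barcodes (more than 20 UMIs of the 3 complement genes and at least 8 cycle UMIs). In both libraries of day 7, 2583 of 10318 genes (25.0%) were past 2-fold higher in the Sox10 barcodes and 1003 (9.72%) lower. Of 19 Schwann and neural crest genes measured, 17 were past 2-fold higher, with medians of 5.95, 3.11, 4.72, 5.92 and 6.48, and of 22 matrix genes 20 were. All 13 macrophage genes measured were past 2-fold lower, among which C1qa, C1qb and C1qc were set by the rule. Genes nearly absent from 1 set reach the minimum of UMIs through the other, so these list counts are partly set by it. Summed over all its genes, the Schwann and neural crest list stood at 236, 623, 292, 362 and 332 CPM in the cycling macrophages. In the cycling Sox10 barcodes it was 2569, 2700, 2534, 2240 and 2352 CPM. Beside the rule genes, the most different genes included Plvap, Tril, Klhdc8a, Il17rc, Sema3d, Gpr153, Lama5 and Acox2 on the Sox10 side and Pld4, P2ry6, Clec12a, Clec4a2, Ccdc88b, Cd72 and Cxcl14 on the macrophage side. Plvap, known as a protein of endothelial diaphragms, was seen here without the endothelial Cdh5, Emcn or Cldn5, at 61.4, 45.1, 51.6, 49.2 and 45.5 CPM in 25, 416, 205, 69 and 62 barcodes.

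The cycle lists themselves were higher in the Sox10 barcodes than in the cycling macrophages, against a median of all genes of 0.53, 0.47, 0.53, 0.64 and 0.69. S phase had medians of 0.75, 0.91, 1.03, 0.55 and 1.16 and G2/M of 1.01, 0.64, 0.58, 0.66 and 0.93. At day 7, 14 of 43 S phase genes (with 25.0% of all genes as background) and 11 of 50 G2/M genes were past 2-fold higher, so neither list stood far from the other genes. The class II list of antigen presentation, which macrophages express strongly, was lower in the Sox10 barcodes, by medians of -2.09, -2.07, -1.83, -1.77 and -1.99, with 5 of 8 genes past 2-fold lower.

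The study asked what L-fuc does to the immune cells of tumors, and the same libraries allow the cycling Sox10 barcodes of L-fuc day 7 to be set against those of control day 7. Over 11077 genes that reached 50 UMIs in both sets together, 86 (0.776%) were past 2-fold higher with L-fuc and 157 (1.42%) past 2-fold lower, with a median log2 ratio of -0.03. The list with the highest median was that of red cells, at 1.72 with 5 of 5 genes past 2-fold higher, followed by those of antigen presentation and interferon. Of 8 class II genes 7 were past 2-fold higher, with a median of 1.18, of 16 class I genes 4 were, with a median of 0.80, and of 22 interferon-stimulated genes 4 were, with a median of 0.71. These are differences between 2 pools of mice, and pools, runs and treatment cannot be told apart.

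Class II molecules show peptides to CD4 T cells, and tumor cells make them mainly under interferon gamma through Ciita. H2-Aa, the alpha chain of I-A, at chr17:34282744-34287823 on GRCm38.p6, stood at 1004, 634, 1516, 1467 and 1297 CPM, a log2 ratio of 1.26 at day 7 (exact 95% interval 1.22 to 1.29). Its partner H2-Ab1 stood at 452, 337, 879, 840 and 782 CPM, a ratio of 1.38 (1.33 to 1.43). Control day 7 was the lowest of the 5 libraries for both, below pretreatment too, and the other treated and late libraries were near each other. Ciita, the master activator of class II genes, had 28.7, 25.2, 53.2, 37.8 and 45.5 CPM, a ratio of 1.08 (0.89 to 1.27). The invariant chain Cd74 had 2213, 1487, 3080, 2846 and 2649 CPM (1.05) and the peptide exchange factor H2-DMa 165, 115, 281, 236 and 221 CPM (1.29). Ctss, a protease of macrophages that is also on the list, was the exception, at 1.59, 43.1, 7.40, 3.97 and 3.64 CPM and a ratio of -2.53.

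Class II RNA was spread over the barcodes. The median barcode held 21.2, 18.1, 66.8, 57.7 and 59.2 UMIs of the list per 10000 UMIs, and the range from the 5th to the 95th percentile was 0.405 to 136 at pretreatment, 2.82 to 90.8 at control day 7, 9.45 to 156 at L-fuc day 7, 9.36 to 142 at control day 21 and 13.4 to 115 at L-fuc day 21. The ranges overlap widely. At 5000 UMIs per barcode, H2-Aa was found in 73.5%, 71.1%, 94.2%, 96.5% and 96.9% of the cycling Sox10 barcodes and in 47.7%, 72.5%, 48.8%, 33.3% and 52.9% of the T cell barcodes. At control day 7, 5 of the 8 genes of the list were found about as often as in T cells, with H2-Aa in 71.1% against 72.5%, H2-Ab1 in 58.3% against 58.75%, H2-Eb1 in 62.9% against 66.25%, Cd74 in 91.0% against 90.4% and H2-DMa in 35.8% of both. These shares are at background in that library, and the day 7 ratios of these genes are to be read beside that. At L-fuc day 7 the same 5 genes were found more often than in T cells, such as Cd74 in 98.5% against 73.4% and H2-DMa in 63.5% against 24.3%. H2-DMb1, a less abundant gene of the list, was found in 18.37%, 16.4%, 35.03%, 31.0% and 39.2% of the Sox10 barcodes against 6.04%, 10.4%, 6.48%, 4.76% and 0% of the T cell barcodes. At control day 7 the intervals of these shares overlap (14.3% to 18.6% and 6.86% to 15.0%), as do those of Ciita, in 12.4% (10.5% to 14.4%) against 9.58% (6.17% to 14.0%). H2-DMb2, a class II gene outside the list, was found there in 29.4% (26.8% to 32.1%) of the Sox10 and 18.75% (14.02% to 24.3%) of the T cell barcodes, above the background.

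Class I molecules show peptides of a cell's own proteins to CD8 T cells. Psmb8, a subunit of the immunoproteasome that cuts such peptides, stood at 696, 436, 1019, 907 and 844 CPM, a log2 ratio of 1.22 at day 7 (1.18 to 1.27). Tap1, which carries peptides into the endoplasmic reticulum, had 143, 84.7, 178, 170 and 156 CPM (1.07, with an interval of 0.96 to 1.17). Psmb9 and Nlrc5, the class I activator, were the other genes past 2-fold, at 1.11 and 1.03. B2m, the common light chain, had 1293, 1407, 2190, 1914 and 1580 CPM (0.64). The heavy chains H2-K1 at 375, 303, 505, 1256 and 1221 CPM and H2-D1 at 316, 327, 622, 265 and 184 CPM were at 0.74 and 0.93. They differed between days in opposite directions, and their reads can be split between near-identical class I genes, so single heavy chains are uncertain. Across barcodes, class I and class II lists went together, with a Spearman correlation of 0.76, 0.69, 0.78, 0.81 and 0.71 over the barcodes of each library.

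Of the interferon-stimulated genes, Gbp2 and Gbp3, guanylate-binding proteins, had 210, 103, 231, 191 and 203 CPM (1.16) and 75.7, 49.1, 116, 66.1 and 94.4 CPM (1.25). Oas1a, which senses double-stranded RNA, was at 1.46. The chemokine Cxcl10 had 220, 200, 401, 451 and 371 CPM (1.00). Isg15 and Irf7, classic targets of type I interferon, were at 0.66 and 0.38. Control day 7 was the lowest library for Gbp2, Gbp3 and Cxcl10.

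**Figure D4:**
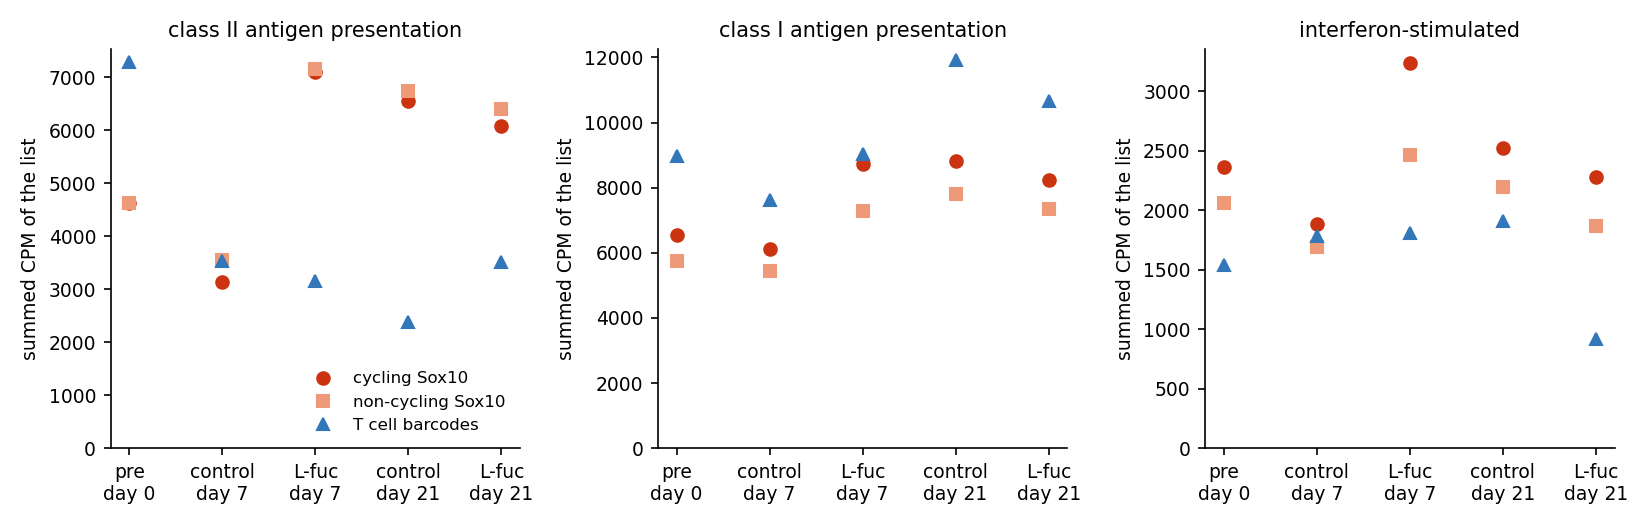
Summed CPM of the class II, class I and interferon-stimulated lists in cycling Sox10, non-cycling Sox10 and T cell barcodes of the 5 libraries, as points, on axes that start at 0. For class II, cycling and non-cycling Sox10 barcodes have nearly the same levels in each library, and control day 7 is the lowest of both.

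The same was seen outside the cycle. Class II summed to 4626, 3141, 7110, 6564 and 6089 CPM in the cycling and 4622, 3549, 7159, 6741 and 6396 CPM in the non-cycling Sox10 barcodes, and to 7287, 3535, 3165, 2387 and 3511 CPM in the T cell barcodes, where L-fuc day 7 was below control day 7. In the cycling macrophages it was 29136, 17869, 32387, 31820 and 32872 CPM, again lowest at control day 7. Class I summed to 6532, 6127, 8731, 8809 and 8232 CPM in the cycling and 5738, 5440, 7274, 7819 and 7354 CPM in the non-cycling barcodes. In the T cell barcodes it was 8979, 7631, 9029, 11928 and 10670.3 CPM and in the cycling macrophages 10467, 9308, 10602, 10403 and 10918 CPM, with control day 7 the lowest of both. The class II and class I levels of control day 7 were thus low in the macrophages too, and those of class I in the T cell barcodes. In the non-cycling barcodes the day 7 medians were 1.06 for class II, 0.65 for class I and 0.48 for interferon-stimulated genes, beside 118 of 12304 genes past 2-fold higher (0.959%) and 444 lower (3.61%). Within a library, the cycling over non-cycling medians were -0.00, -0.10, 0.10, 0.14 and 0.02 for class II and 0.33, 0.33, 0.48, 0.33 and 0.36 for class I.

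No gene of the S phase, G2/M or replication histone lists was past 2-fold between the day 7 libraries, but the lists lay in different directions. The S phase list had a median of 0.20 with 40 of 43 genes above 0, and the G2/M list a median of -0.12 with 9 of 50 above 0. Replication histones had a median of 0.28 with 14 of 19 above 0. Pcna was at 0.39 (0.31 to 0.48) and Mcm6 at 0.38 (0.28 to 0.47). The 13 fucose pathway genes measured had a median of -0.06, and none was past 2-fold. Fut8, which adds the core fucose of N-glycans, stood at 41.4, 51.5, 46.3, 42.6 and 55.1 CPM, and Gmds, the first enzyme of GDP-fucose synthesis from mannose, at 43.0, 34.5, 33.5, 43.6 and 37.2 CPM.

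The lists with the most genes past 2-fold lower at day 7 were those of macrophages, matrix and T cells. Of 11 macrophage genes measured 9 were past 2-fold lower with L-fuc, with a median of -2.21, and of 26 matrix genes 7 were. All 3 T cell genes measured, of 8 in the list, were past 2-fold lower, with a median of -1.29. Cd3e reached the minimum of UMIs mostly through control day 7, with 83 UMIs there and 19 with L-fuc. The count of T cell genes is therefore partly set by that minimum. Summed over all 8 genes, the list stood at 20.6 CPM at control day 7 and 6.97 CPM with L-fuc. Lyz2, a lysozyme of macrophages, stood at 0, 24.5, 2.72, 0.793 and 2.34 CPM. Col1a1, the fibrillar collagen of fibroblasts, went from 69.6 CPM at control day 7 to 3.27 CPM with L-fuc, a ratio of -4.38, and stood at 0.797, 2.38 and 4.16 CPM in the other libraries. Its 1113 UMIs at control day 7 were in 56 barcodes, with 252 of them in 1 barcode. Control day 7 was the highest library for both genes, but not for the summed macrophage and fibroblast lists given above. Matrix RNA is abundant in the cycling Sox10 barcodes themselves, where the list summed to 7157, 7433, 6572, 7063 and 7062 CPM, against 1079, 1392, 756, 757 and 1018 CPM in the cycling macrophages. The T cell barcodes held 353, 3983, 1488, 428 and 509.9 CPM of it, so they too were highest at control day 7. With barcodes of no complement UMI alone, the number of genes past 2-fold lower dropped from 157 to 34, and the class II median was 1.09. Without barcodes of more than 5 UMIs of 7 immune genes, Cd74 among them, it was -0.014, from 229 barcodes of control and 14 of L-fuc. The part of RNA from other cells in the remaining differences was not tested.

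**Figure D5:**
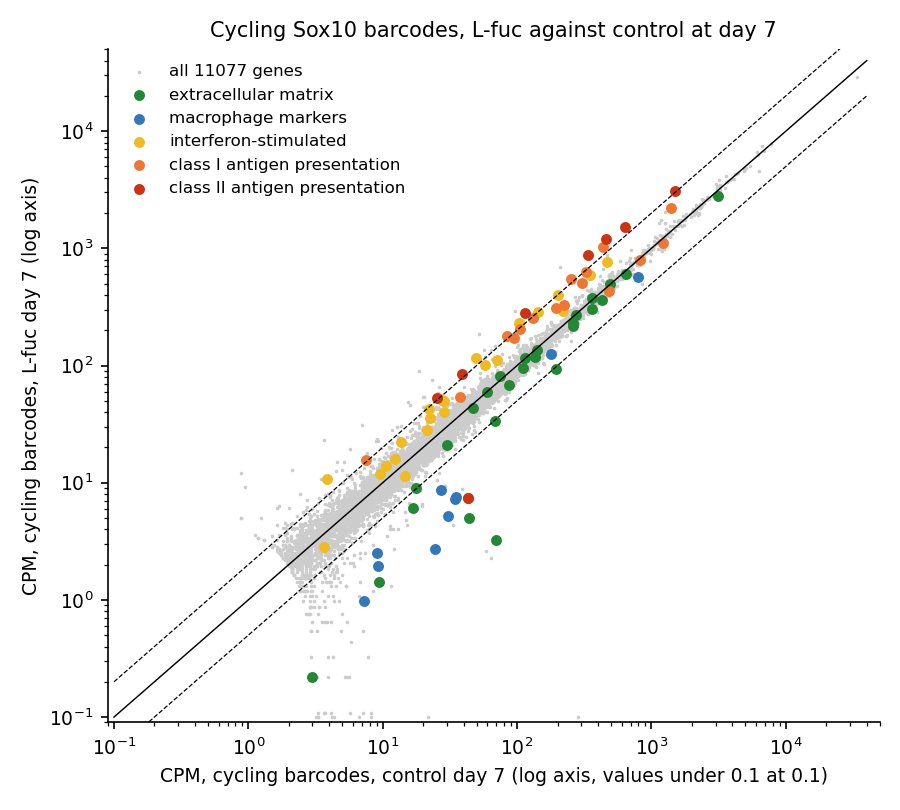
CPM of each gene in the cycling Sox10 barcodes of control day 7 (x axis) and L-fuc day 7 (y axis), both on log axes, with values under 0.1 drawn at 0.1 and dashed lines at 2-fold. Most class II, class I and interferon-stimulated genes lie above the diagonal, the class II gene far below it is Ctss, and macrophage and matrix genes are among those below it.

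Single barcodes made up several of the most extreme genes of day 7. Among the 10 highest, Ifitm1 had 95 of its 112 UMIs with L-fuc in 1 barcode, Enah 64 of 119 and Ccl6 all 46. Ubd, an ubiquitin-like protein induced by interferon gamma, was in 27 barcodes with 84 UMIs against 11 with 15, and Gbp8 in 95 barcodes with 211 UMIs against 46 with 58. H2-Eb2 of the class II region had 7.17, 7.07, 31.1, 52.4 and 38.0 CPM, and Slamf8, Oas2 and Gm20429 were at 2.41, 1.94 and 1.86. Hbb-bt is a globin, and its list was the higher one with L-fuc day 7 in T cell barcodes too, at 3454 against 1125 CPM. In the non-cycling macrophages it was also higher, at 2658 against 499 CPM, but not in the cycling ones, at 197 against 657 CPM. Among the 10 lowest, Igkv6-32 had 4553 UMIs in 1 barcode of control day 7, Ighv1-62 347 of 349 and Ighv1-72 104 of 106 in 1 barcode. These are antibody segments, as are Igkv8-19, Igkv8-27 and Igkv14-126. Cpxm1 (63 of 131 UMIs in 1 barcode), Col12a1, Cygb and Ccl11 made up the rest.

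At day 21 the share of genes past 2-fold higher with L-fuc was close to that of day 7, and the share lower was smaller. Over 9683 genes, 72 (0.744%) were past 2-fold higher with L-fuc and 46 (0.475%) lower. Class II had a median of -0.09, class I of -0.08 and interferon-stimulated genes of -0.19, S phase of -0.07 and G2/M of -0.15. H2-Aa was at -0.18 (-0.23 to -0.12) and Psmb8 at -0.10 (-0.17 to -0.03), both small beside the ratios of day 7. The non-cycling barcodes had 60 of 9581 genes (0.626%) higher and 37 (0.386%) lower.

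Of the lists at day 21, the replication histones had the most genes past 2-fold, with 4 of 18 higher and a median of 0.70. The stress list had 3 of 17 higher at a median of -0.23, and the matrix list 2 of 21 at 0.07. Lists with only 2 or 3 genes measured lay lower, the melanocyte list at -1.50, the pericyte list at -0.76, the macrophage list at -0.59 and the fibroblast list at -0.57. Hist1h1d, a linker histone, stood at 238, 125, 167, 130 and 298 CPM, a log2 ratio of 1.19 (1.04 to 1.35) between the day 21 libraries. Hist1h2ak had 61.4, 24.9, 44.1, 22.2 and 67.6 CPM (1.59, with an interval of 1.25 to 1.98). Hist1h2af and Hist1h4c were at 1.55 and 1.52 from 145 and 72 UMIs with L-fuc. Pretreatment and L-fuc day 21 were the highest libraries for Hist1h1d and Hist1h2ak. The non-cycling barcodes had a list median of 0.54, and the T cell barcodes of L-fuc day 21 held more histone RNA than those of the other libraries, 4068 CPM from 23 barcodes. Copies of a histone type are near-identical in sequence, so single histone genes are uncertain.

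Among the most extreme single genes of day 21, Tex101, a protein known from germ cells, stood at 34.3, 34.8, 23.3, 54.5 and 0 CPM. In the control library of that day its 206 UMIs were spread over 16 barcodes, and with L-fuc none was found, although the non-cycling barcodes there held 3.88 CPM. Gm20628, with 49.4, 27.4, 55.6, 19.6 and 105 CPM, and Akap12, an anchor of protein kinase A, with 56.6, 33.3, 44.9, 6.35 and 29.4 CPM, were higher with L-fuc. Tyrp1, an enzyme of pigment, was lower, at 16.7, 15.8, 6.75, 38.1 and 7.80 CPM. Cxcl2 and Slpi rested on single barcodes of the control, with 108 of 126 and 606 of 631 UMIs. Igkv12-44, an antibody segment, had 81 UMIs in 41 barcodes of L-fuc day 21 and none in the other libraries. With 113 and 98 barcodes in all, few barcodes decided values such as those of Cxcl2 and Slpi. Igkv12-44 and Gm20628 were spread more widely, over 41 and 57 barcodes with L-fuc.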

How the data were processed

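The 5 gene expression matrices of pooled SW1 tumors hold UMI counts per gene and barcode, deposited by the authors without normalization and aligned to mm10. The submitters' processing notes name Cell Ranger 3.0 and Seurat 4.0, and the matrix headers name cellranger 7.1.0. The clonotype contigs of the 5 receptor libraries, deposited with a count of UMIs per contig, served only to mark barcodes. The rule for the cycling Sox10 barcodes, the 28 gene lists and the genes named (rule genes, list members, the 10 highest and 10 lowest log2 ratios per comparison, and the 10 highest CPM at control day 7) were chosen with earlier results of these data known. Counts were summed over barcodes of a library, scaled to CPM, and set against each other as log2 ratios after 1 UMI was added to each sum, for genes that reached 50 UMIs in both sets together. Past 2-fold means a log2 ratio beyond 1 in size. With 1 library a condition, there was no test. Intervals are exact at 95% (Clopper-Pearson for shares, conditional binomial for ratios) and cover counting error only. On simulated data for the day 7 comparison (11073 genes), 98.5% of 200 genes changed 4-fold were called, and for day 21 (9655 genes) 92.5%. Unchanged genes called there numbered 7 and 4. The simulated sums were Poisson counts without spread between barcodes or pools. They cover counting error only, not genes that rest on single barcodes. Other minimums, depths, scalings and left-out barcodes were tried as alternatives. RefSeq promoters and positions are on GRCm38.p6. Python 3.11.15, numpy 2.4.6, scipy 1.17.1 and pandas 2.3.3 were used. The labels give 10 days of growth and the L-fuc dose as 100 mM in one protocol and 100 nM in another. The 4T1 tumors were not analysed here. Some genes that the naming rule reached are not reported here.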

Additional observations from a re-analysis of the deposited data

Results flagged for a closer look

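The antigen presentation lists of the cycling Sox10 barcodes had medians above 0 at day 7 and near 0 at day 21, where genes of each list lay on both sides of 0 and the sign of the median decides nothing. For class I the list median of log2 L-fuc to control was 0.80 at day 7 and -0.078 at day 21. For class II it was 1.18 at day 7 and -0.090 at day 21. For interferon-stimulated genes it was 0.71 at day 7 and -0.19 at day 21. The difference between days was not tested, since each value compares 2 pools. Control day 7 had the lowest summed class II level of the 5 libraries, 3141 CPM, and the day 21 libraries were at 6564 and 6089 CPM.

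The receptor libraries, outside the gene expression measurement, held a T cell receptor contig for 10 of the 1268 cycling Sox10 barcodes of control day 7 (0.789%, exact 95% interval 0.379% to 1.45%). In the others it was 0 of 50 at pretreatment, 1 of 398 at L-fuc day 7 and 0 of 113 and 0 of 98 at day 21, with upper limits of 7.11%, 1.39%, 3.21% and 3.69%, so the libraries cannot be told apart in this share.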

How the results depend on the processing

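Values are read from 1 pool of mice per condition, few barcodes at pretreatment and day 21 limit the precision, and UMIs of Sox10 in T cell barcodes of day 7 limit what low levels show. No paired analysis was possible because each condition is 1 pooled library and its mice are not told apart. Each main result was set against its value under each alternative that applied to it, and the counts here are of such pairs, not of results. Of the pairs for main results, 343 stayed within the counting interval (or 1.5 times a count), 94 moved past it and 1 reversed. Reversed was used only for a list median of at least 1 in size that changed sign, so smaller medians that changed sign are among the others. Of the pairs for the other list medians, 911 stayed, 111 moved and 1 reversed. Single genes were not tried under the alternatives. A mitochondrial maximum of 20% and a pseudocount of 5 UMIs moved no main result. For moved values the cause was not tested unless the setting itself gives it.

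Shares of Sox10 barcodes in cycle were 20.9% (control day 7) and 19.4% (L-fuc day 7) with at least 4 cycle UMIs. With at least 16 they were 10.5%, 11.5% and, at control day 21, 20.4%. At control day 7 the share was 19.1% with at least 2000 genes, where the L-fuc ratio was 0.849, and 17.5% with at least 2 Sox10 UMIs. It was 14.0% without the deepest 10% of the cycling barcodes, a step that lowers the share by itself. At 5000 UMIs the 5 shares were 12.4%, 11.9%, 8.51%, 13.6% and 25.2%, with a day 7 ratio of 0.715. The S-leaning share at control and L-fuc day 7 was 21.4% and 36.2% with at least 4 cycle UMIs, 7.02% and 22.1% with at least 16 and 6.64% and 12.95% at 5000 UMIs, and at control day 7 it was 17.4% with no complement UMI.

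The counts of genes past 2-fold at day 7 were 1248 higher and 1706 lower with no minimum per gene and 137 and 395 with a minimum of 20 UMIs. The lower count was 34 with no complement UMI, 92 when thinned before the rule and 86 when thinned after it. At day 21 they were 740 higher and 1484 lower with no minimum, 150 and 135 with 20 UMIs, 18 and 21 thinned before and 25 and 26 thinned after, and the lower count was 71 by the mean CPM of barcodes. Against non-cycling barcodes, the genes lower in both libraries of day 7 were 597 with no minimum and 81 with at least 4 cycle UMIs.

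The class II median at day 7 was 1.09 with no complement UMI, 1.29 by the mean CPM of barcodes, 1.46 and 1.29 thinned before and after the rule, and 1.28 without the deepest 10%. The S phase median at day 7 was 0.35 with at least 16 cycle UMIs. Against non-cycling barcodes, the G2/M median at control day 7 was 4.29 with at least 2000 genes, 3.88 and 4.31 with at least 4 and 16 cycle UMIs, and 4.38 and 4.31 thinned before and after. At L-fuc day 7 it was 4.91 both by the mean CPM and thinned before. The S phase median was 2.23 (control day 7) and 2.42 (L-fuc day 7) thinned before, and at control day 7 2.60 thinned after and 2.58 without the deepest 10%. The class I median was 0.41 (control day 7) with no complement UMI, 0.55 (L-fuc day 7) by the mean CPM, 0.25 and 0.39 with median-of-ratios scaling and 0.24 and 0.41 thinned before.

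Leaving out barcodes with more than 5 UMIs of 7 immune genes kept only 254 of 1927 (8, 229, 14, 1 and 2), because that sum holds Cd74, a gene of the class II list, and Fcer1g. The shares were then 14.0%, 11.3%, 6.22%, 4.55% and 50%, with a day 7 ratio of 0.553, and the S-leaning shares of day 7 13.1% and 14.3%. The class II median at day 7 reversed to -0.014, from 14 L-fuc barcodes chosen for little Cd74, interferon-stimulated genes were at 0.45 and G2/M at -0.32. The lower genes were 594 at day 7, and at day 21 30 were higher and 6 lower. Against non-cycling barcodes, 141 genes were higher and 55 lower in both libraries of day 7, and at L-fuc day 7 G2/M was at 2.17, S phase at 2.46, class I at 0.55 and the cyclin and kinase list at -0.23, a reversal, while class I at control day 7 was 0.12.

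The following were added after the data were seen. Where they left barcodes out, this was done among the cycling Sox10 barcodes only, unlike with the 7 immune genes. Shares in cycle fall by such a step alone, and the cycling barcodes so filtered were set against unfiltered non-cycling ones. The same sum over 5 immune genes without Cd74 and Coro1a, Fcer1g among them, kept 1044 barcodes (24, 705, 242, 32 and 41). The shares were 10.7%, 9.14%, 9.76%, 8.67% and 23.4%, class II at day 7 was 1.45 and class I 0.92, and 108 genes were lower at day 21. Against non-cycling barcodes at control day 7, S phase was at 2.59, Schwann and neural crest at -0.31 and class I at 0.20. Since barcodes of every library hold Fcer1g, a further sum with Coro1a in place of Fcer1g was added after that result was known. It kept 1894 barcodes and moved no main result. Without barcodes rich in collagen, antibody or globin RNA (1792 kept), the share at L-fuc day 7 was 13.5%. With T cell barcodes chosen after thinning and not before, 72.0% of those of control day 7 held H2-Aa.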
